A study of Mus musculus with 6 samples.

Results

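The genes described here serve protein folding in the endoplasmic reticulum (ER) and the unfolded protein response, and they were followed in crypt epithelium of the mouse jejunum with and without Sox9. The set was a fixed list of 38 genes, taken out of 18193 genes that the array reports under a single symbol. All 38 were on the array, with 91 probe sets, and each gene was read from the probe set with the highest mean over all 6 arrays. A mean log2 intensity of at least 4 was required for testing, which 37 genes met. The exception was Derl3.

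The KO group held 3 Sox9 deficient mice (KO 1 to KO 3) and the WT group held 3 littermates labelled wild type (WT 1 to WT 3), all C57BL/6 and 3 months old. Each mouse gave RNA from crypts of the jejunum for 1 array, so n = 3 in each group, and values are log2 intensities. The sources used here do not give the allele, the promoter of any Cre or the cells in which Sox9 was removed. One of the 3 Sox9 probe sets read 2.44, 2.75 and 2.42 in KO 1, 2 and 3 against 7.61, 5.96 and 5.84 in WT 1, 2 and 3 (limma adjusted p = 0.188). The brightest did not separate the groups, at 5.33, 6.34 and 5.76 in KO and 6.23, 5.38 and 2.68 in WT, and the third was below the filter, at 3.16 to 3.53 on all arrays. Where the probe sets lie relative to the deleted part is not given, so the Sox9 values check the labels on 1 probe set of 3.

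Proteins that will be secreted enter the ER through the Sec61 channel, are folded there by chaperones and disulfide isomerases, and are sent to the proteasome by ER-associated degradation when folding fails. Membrane sensors, the products of Ern1 (IRE1α), Eif2ak3 (PERK) and Atf6, detect unfolded protein and raise the folding capacity through the transcription factors XBP1, ATF4 and ATF6 itself. Gut epithelium has an additional IRE1 protein, made from Ern2. Paneth and goblet cells of the crypt export large amounts of protein, and XBP1 is needed to maintain Paneth cells.

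The arrays differed in ways that the genotype labels do not describe. Xist read 12.29 to 13.35 on the KO arrays and 13.17 on WT 3, but 1.92 on WT 1 and 3.72 on WT 2, and the mean of the Y-linked genes was 7.85 and 8.34 on WT 1 and WT 2 and at most 2.83 on the other arrays. WT 3 was therefore the sole control with the sex-linked pattern of the KO arrays. The Gapdh 3' minus 5' difference, which grows as RNA is degraded, was 1.75 on WT 3 and 0.91 on KO 1, against 0.37 to 0.65 on the other 4. All 7 epithelial markers were above the filter on every array. Of 9 stromal markers 8 were below it.

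With p-values adjusted over the 18108 probe sets, none of the 37 tested genes passed the limma test of KO against WT (adjusted p = 0.999 for each), where 0.011% of all probe sets passed. At an unadjusted p under 0.05 there were 2 of 37, Hyou1 and Sec61a1, both lower in KO, against 3.62% of all probe sets in both directions and 1.81% in the lower direction. No gene differed by 1 log2 unit or more, as 2.97% of all probe sets did. Small differences leaned one way. Of the 37, 27 were below 0 and 10 above, while 53.9% of all probe sets were above 0, and the median difference was -0.16 against 0.03 over all probe sets. The listed genes were brighter than all probe sets (median level 10.4 against 7.87). The lean was not particular to them. Of 7 epithelial markers 6 were also lower in KO (median -0.11), as were 6 of 8 goblet markers (median -0.13). Of 7 enterocyte markers 2 were lower and 5 higher. In RNA of whole crypts, fewer cells of a type and less RNA per cell cannot be told apart. The 95% intervals of the limma fit had half-widths of 0.38 to 1.14 (median 0.55), and 27 of 37 lay wholly between -1 and 1, so that doubling and halving both lie outside those 27 intervals, while each of the other 10 holds one of them.

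**Figure D1:**
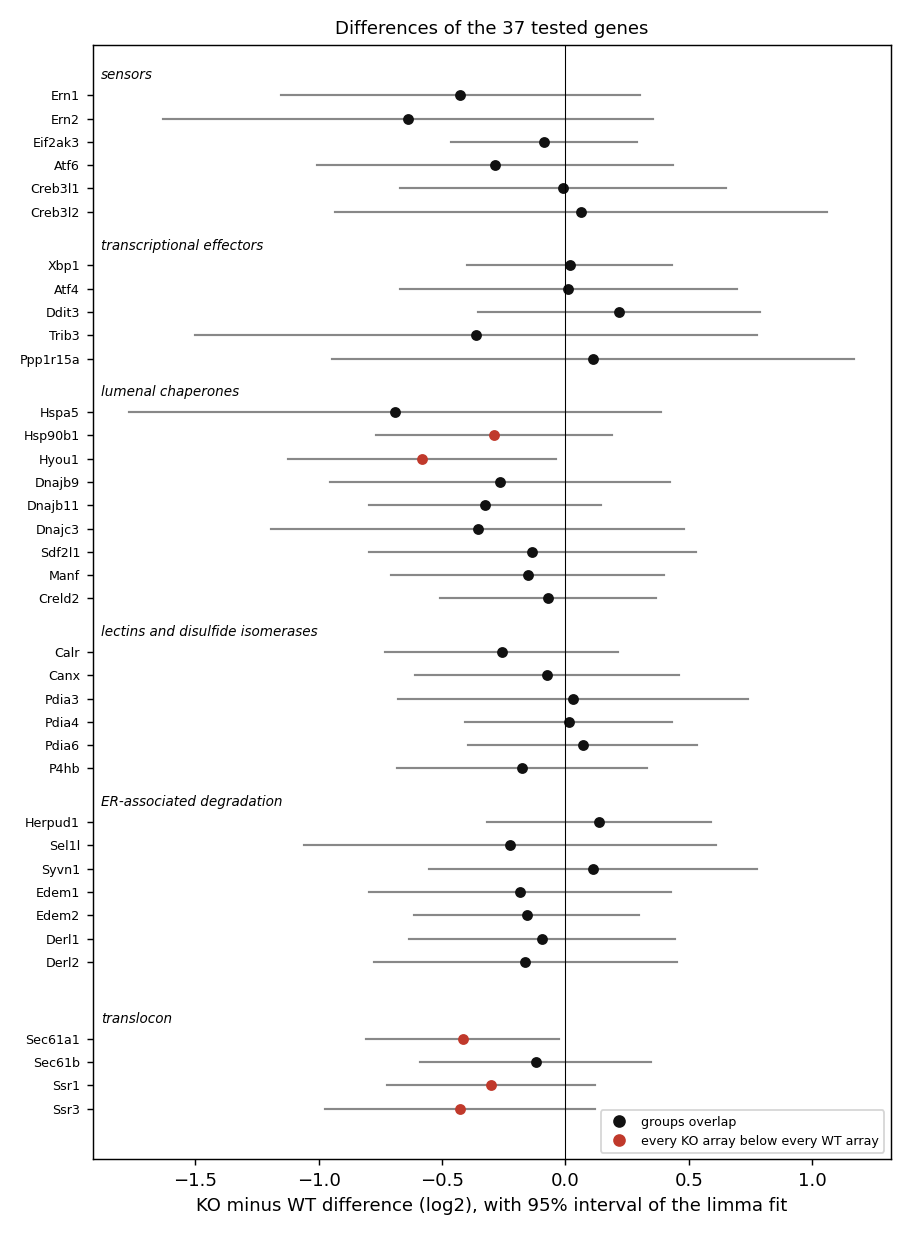
KO minus WT difference in log2 intensity (horizontal axis) for each of the 37 tested genes, ordered by role, with bars for the 95% interval of the limma fit (3 arrays per group). Red points mark the 5 genes whose groups did not overlap, all lower in KO, and 35 of the 37 intervals hold 0.

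The groups did not overlap in 5 of the 37 genes, Hsp90b1, Hyou1, Sec61a1, Ssr1 and Ssr3, each time with the mutants below the controls. Over all probe sets the groups did not overlap in 9.12%, and lay apart with KO lower in 4.03%. The count depended on single arrays and on the choice of probe set. It was 14 of 37 without WT 3 (18.4% of all probe sets), 10 without KO 3 (17.2%), 7 without WT 2 (16.1%) and 6 without KO 2 (15.8%). It fell below the share of all probe sets without KO 1, at 7 of 37 (24.1%), without WT 1, at 6 (20.4%), and with the mean of each gene's probe sets, at 1 (8.98% of genes). With both KO 1 and WT 3 left out, a choice made after seeing the data, it was 18, of which 14 lower, where 43.7% of all probe sets lay apart.

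KO 1 lay lowest of the mutants over these genes. From the mean of each gene, the median over the 37 genes was -0.28 on KO 1, -0.05 on KO 2 and 0.05 on KO 3. For the controls it was 0.13 (WT 1), 0.13 (WT 2) and 0.02 (WT 3), which puts KO 3 above WT 3. KO 1 was the lowest array in 19 of 37 genes, while it was lowest in 27.4% of all probe sets. KO 3 was lowest in 0 of 37 and highest in 10. Without KO 1 the median difference was -0.10, with 24 of 37 genes lower. It was -0.25 without WT 3. A model term for the Y-linked mean gave -0.05, with 22 of 37 lower, and a model term for the Gapdh difference gave -0.25, with 29 lower.

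**Figure D2:**
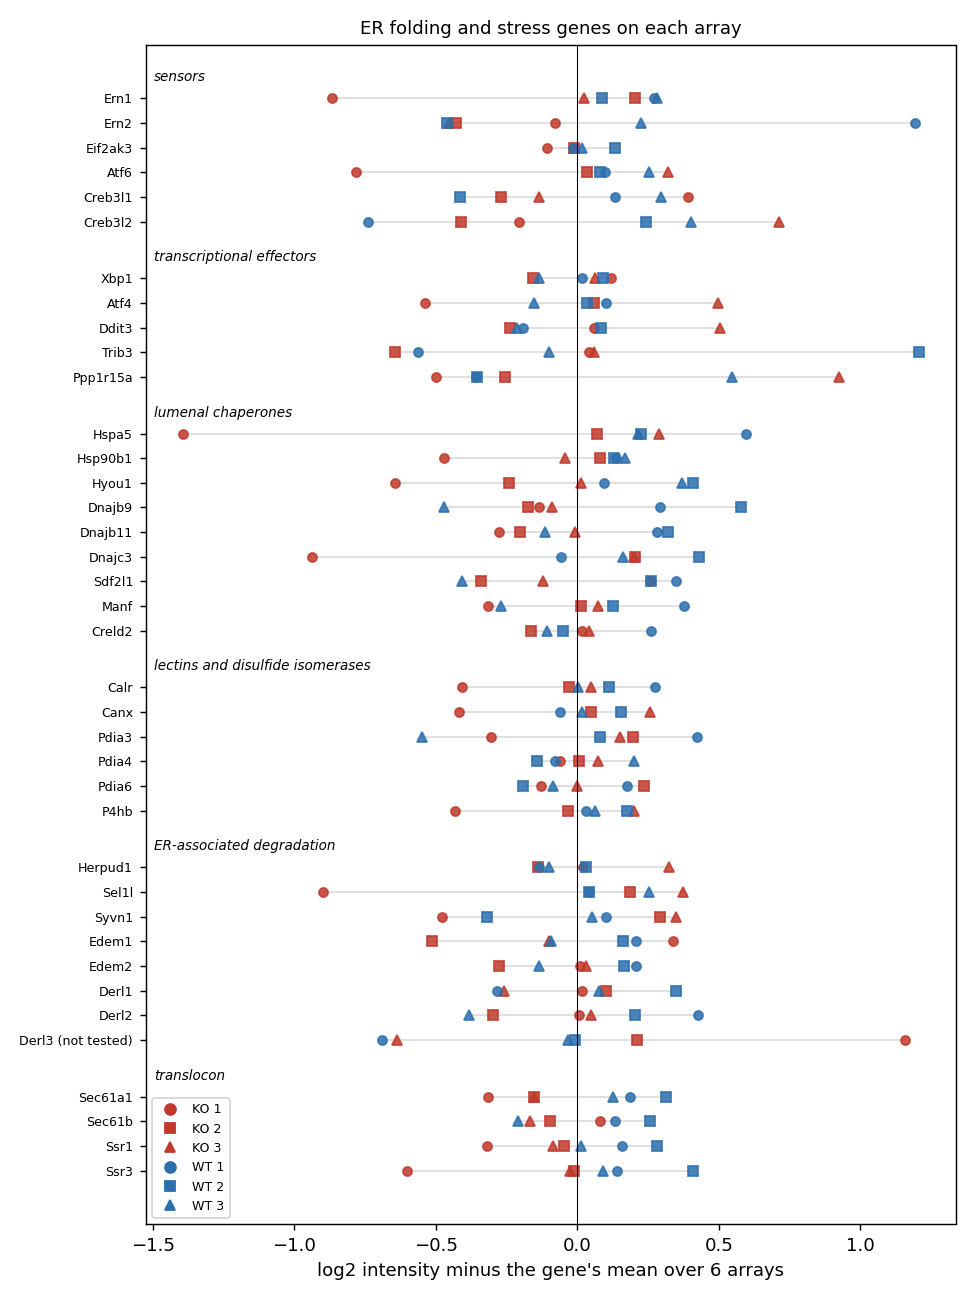
Log2 intensity on each array minus the gene's mean over the 6 arrays (horizontal axis) for the 38 genes, grouped by role; red marks KO, blue WT, and the symbol gives the mouse. KO 1 (red circles) is the lowest array in 19 of the 37 tested genes and, among those, stands farthest from the gene mean for Hspa5, Dnajc3, Sel1l, Ern1 and Atf6; for Derl3, not tested, it is the highest.

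Several promoters of these genes hold the DNA element through which ATF6 and XBP1 act, the ER stress response element (ERSE), with the letters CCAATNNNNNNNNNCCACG. RefSeq promoters of build GRCm38.p6 were found for 31 of the 38 genes, and the 250 bases before each start were searched on both strands. ERSE was present in 9 of 31 listed genes (29%) and in 0.13% of all 27025 genes, searched over the same length. Of 35 genes with a match in the whole table, 9 were on this list. The element was first defined on promoters of the Hspa5, Hsp90b1 and Calr genes, so their matches are no independent observation. The whole list was made of genes of ER folding and the unfolded protein response, to which this element belongs. The share of 9 in 31 is therefore no independent result either. The 10 matches are shown because they recur in chaperone, lectin and degradation genes alike. A match is a run of letters and was not tested as a binding site. Each is printed 5′ to 3′ in the orientation of the element with 12 bases on either side, and capitals mark CCAAT and CCACG:
Hspa5 (chr2:34772013-34772055, + strand): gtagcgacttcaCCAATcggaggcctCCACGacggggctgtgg
Hsp90b1, distal (chr10:86705626-86705668, - strand): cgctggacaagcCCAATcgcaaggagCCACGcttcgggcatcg
Hsp90b1, proximal (chr10:86705521-86705563, + strand): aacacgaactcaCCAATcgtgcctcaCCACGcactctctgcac
Dnajc3 (chr14:118937815-118937857, + strand): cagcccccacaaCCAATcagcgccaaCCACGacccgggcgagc
Creld2 (chr15:88819508-88819550, - strand): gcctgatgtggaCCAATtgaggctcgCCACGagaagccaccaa
Calr (chr8:84847063-84847105, + strand): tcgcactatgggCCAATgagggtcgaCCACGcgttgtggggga
Canx (chr11:50325788-50325830, - strand): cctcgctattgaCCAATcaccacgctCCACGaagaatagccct
Pdia6 (chr12:17266479-17266521, + strand): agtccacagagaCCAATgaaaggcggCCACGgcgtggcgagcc
Syvn1 (chr19:6046520-6046562, + strand): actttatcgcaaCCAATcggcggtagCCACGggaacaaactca
Derl3 (chr10:75893230-75893272, - strand): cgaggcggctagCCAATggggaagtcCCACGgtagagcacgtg

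Herpud1 carried the related ERSE-II, with the letters ATTGGNCCACG, found in 1 of 31 listed genes and in 0.037% of all genes. A single match is no ground for comparing these shares, and it is not taken as an independent observation. It is shown in the same way, with capitals on ATTGG and CCACG:
Herpud1 (chr8:94386365-94386399, + strand): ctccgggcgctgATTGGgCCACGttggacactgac

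The 9 bases between CCAAT and CCACG formed 10 different runs in the 10 matches, and the matches lay between 26 and 212 bases before the start. Other motifs were searched in the same way. The UPRE core TGACGTGG was in 0 of 31 listed genes (0.603% of all genes). The CRE core TGACGT, which is part of the UPRE core, was in 5, Canx, Creb3l2, Dnajb11, Hspa5 and Ppp1r15a (7.29% of all genes). The ATF4-type motif TGATGNAA was in 1, Herpud1 (3.91% of all genes). The 9 tested genes with ERSE or ERSE-II had a median KO minus WT difference of -0.07 (6 lower, 3 higher), and the 21 tested genes whose promoter held neither had -0.16 (14 lower, 7 higher). The 7 tested genes without a promoter in the table, Hyou1, Sec61a1 and Ern2 among them, had the lowest median of these classes, -0.29 (7 lower).

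**Figure D3:**
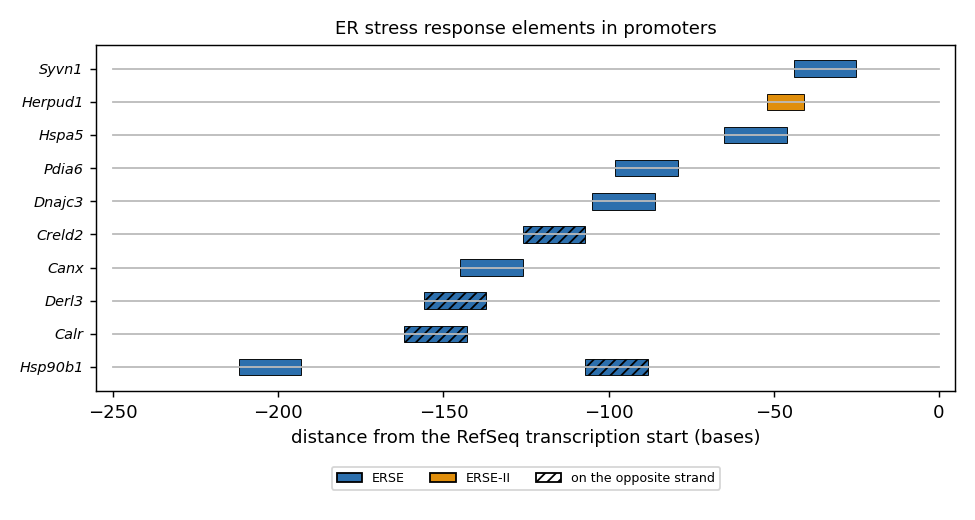
Position of ERSE (blue) and ERSE-II (orange) in the 250 bases before the RefSeq transcription start (horizontal axis, in bases) of the 10 genes with a match; hatching marks a match on the strand opposite to the gene. Syvn1 has its match nearest to the start and Hsp90b1 has a pair of matches.

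The sensors were represented by Ern1, Ern2, Eif2ak3, Atf6 and the related membrane-bound factors Creb3l1 and Creb3l2. Of 6, 5 differences were below 0 and none passed. Ern1 read 8.09, 9.16 and 8.98 in KO 1, 2 and 3 and 9.22, 9.04 and 9.23 in WT 1, 2 and 3. KO 1 alone lay low. The difference was -0.43 ± 0.30 (SE), and -0.10 without KO 1. Ern2, whose product is the IRE1 protein of mucus-secreting gut epithelium, read 6.99, 6.64 and 6.61 in KO and 8.26, 6.60 and 7.29 in WT. WT 2 was as low as the mutants, and WT 1 was the high array. The difference of -0.64 ± 0.41 (SE) ranged from -0.20 without WT 1 to -1.03 without WT 2. Eif2ak3, which encodes PERK, varied little, at 8.39 ± 0.06 in the mutants and 8.48 ± 0.08 in the controls (SD, 3 mice each). Atf6 was 7.58 on KO 1 and 8.40 to 8.69 on the other 5 arrays (difference -0.29 ± 0.30, SE). Creb3l1, a factor of secretory cells, differed by -0.01 and Creb3l2 by 0.06.

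The transcriptional effectors showed no common direction. Xbp1 read 12.82, 12.54 and 12.76 in KO and 12.72, 12.79 and 12.56 in WT. The difference was 0.02 with a 95% interval of -0.40 to 0.43, and its sign turned under several settings (-0.04 without KO 1, -0.05 without WT 3). The values are not split by the form of Xbp1 RNA that IRE1 splices. Atf4, the factor translated when PERK acts, read 10.37, 10.96 and 11.41 in KO and 11.01, 10.94 and 10.75 in WT. The mutants spanned both sides of the controls, and the difference of 0.01 (interval -0.67 to 0.70) ran from -0.23 without KO 3 to 0.28 without KO 1. Its other tested probe set read 8.70, 9.08 and 9.41 in KO and 9.85, 10.01 and 9.65 in WT, a difference of -0.77 with no overlap (limma adjusted p = 0.999, exact two-sided permutation p = 0.1, the smallest possible). The pair of probe sets thus disagreed.

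Ddit3, which encodes the pro-apoptotic factor CHOP, read 6.87, 6.57 and 7.31 in KO and 6.62, 6.89 and 6.60 in WT, a difference of 0.22 ± 0.24 (SE). KO 3 was the highest array and KO 2 the lowest. Trib3, a pseudokinase gene induced by CHOP and ATF4, differed by -0.36, with WT 2 at 7.10 and the other arrays at 5.25 to 5.95. Ppp1r15a, which encodes the GADD34 subunit that ends PERK signalling, differed by 0.11. It was highest on KO 3 (6.35) and WT 3 (5.98) and at most 5.17 on the others.

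All 9 lumenal chaperones and cofactors had differences below 0, from -0.69 for Hspa5 to -0.07 for Creld2, and none passed. Hspa5 encodes BiP, the main ER chaperone and the regulator of the sensors. It read 12.56, 14.02 and 14.24 in KO 1, 2 and 3 and 14.55, 14.18 and 14.17 in WT 1, 2 and 3. KO 1 was far below the rest, and KO 3 lay within the controls. The difference of -0.69 ± 0.45 (SE) became -0.17 without KO 1 and -1.01 without KO 3. A second Hspa5 probe set gave the same picture, with 11.52 on KO 1 and 12.66 to 13.02 on the other arrays, while the third and dimmest was highest on KO 1 (9.09, against 8.42 to 8.88).

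Hsp90b1, which encodes GRP94, read 13.12, 13.67 and 13.54 in KO and 13.72, 13.72 and 13.76 in WT. The nearest arrays of the groups were 0.051 apart (difference -0.29 ± 0.20, SE; exact two-sided permutation p = 0.1, the smallest that 3 against 3 allows). The exact p is the same for each of the 5 genes whose groups did not overlap. Hyou1, an HSP70-like chaperone that exchanges the nucleotide of BiP, read 6.85, 7.26 and 7.51 in KO and 7.59, 7.91 and 7.87 in WT. Its difference of -0.58 ± 0.23 (SE) had an unadjusted limma p of 0.039, and it was -0.41 without KO 1 and -0.73 without KO 3. On its other tested probe set the arrays read 4.92, 6.12 and 7.63 in KO and 6.65, 7.96 and 6.29 in WT, so the groups overlapped there.

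The J-domain cochaperones of BiP showed differing patterns. Dnajb11 (-0.32) and Dnajb9 (-0.27) had close KO arrays, at 10.10 to 10.37 and 10.38 to 10.47, all below WT 1 and WT 2. WT 3 lay within the KO arrays for Dnajb11 (10.26) and below all of them for Dnajb9 (10.09). Dnajc3 (-0.36), which encodes an inhibitor of PERK that is also a lumenal cochaperone, was 8.65 on KO 1 and 9.53 to 10.01 on the other 5 arrays. KO 1 was not low on every Dnajc3 probe set. One that was nearly as bright read 9.58, 9.13 and 9.48 in KO and 9.995, 9.81 and 9.19 in WT. Sdf2l1 (-0.13), Manf (-0.15) and Creld2 (-0.07), which encode small secreted or resident proteins induced by ER stress, overlapped widely.

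The lectins and disulfide isomerases did not lean. The calnexin and calreticulin pair, which holds glycoproteins during folding, differed by -0.07 (Canx) and -0.26 (Calr). All 3 tested Calr probe sets were lower in KO, from -0.26 to -0.23, and KO 1 was the lowest array on the one used, at 13.86. The groups overlapped on that one. On the others the mutants lay wholly below the controls, by 0.027 and 0.003 at the nearest arrays, as 4.03% of all probe sets did. Pdia3, the isomerase that works with both lectins, differed by 0.03 and was lowest on WT 3 (12.24). Pdia4 (0.01), Pdia6 (0.07) and P4hb (-0.18), which form and shuffle disulfide bonds, had intervals within -0.68 and 0.54. The median of the 6 was -0.03.

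On the probe sets used, genes of ER-associated degradation lay close to 0, with 5 of 7 tested differences below it and all between -0.22 and 0.14. Herpud1, a stress-induced scaffold of the degradation complex, differed by 0.14 and Syvn1, its ubiquitin ligase, by 0.11. On their other tested probe sets Herpud1 was 0.56 and Syvn1 0.29 higher in KO, with groups that overlapped. Sel1l, the partner of that ligase, was 9.66 on KO 1 and 10.59 to 10.93 on the other arrays (-0.22), and 3 of its 4 tested probe sets were higher in KO. The mannosidase-like genes Edem1 (-0.18) and Edem2 (-0.16), which mark misfolded glycoproteins, and the derlins Derl1 (-0.09) and Derl2 (-0.16), membrane proteins of the export channel, overlapped between groups. Of 4 tested Derl1 probe sets 3 were higher in KO, by up to 0.24. Edem1 and Derl2 were lower on all their tested probe sets. Derl3 was near the floor of the array, at 4.59, 3.64 and 2.79 in KO and 2.73, 3.42 and 3.39 in WT, and was not tested. KO 1 was its high array.

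The translocon genes had the lowest median of the 6 roles (-0.36), and 3 of the 4 had mutants wholly below the controls, as 4.03% of all probe sets did. Sec61a1 encodes the pore of the channel. It read 12.58, 12.74 and 12.74 in KO 1, 2 and 3 and 13.08, 13.21 and 13.02 in WT 1, 2 and 3. Both groups were tight, 12.7 ± 0.09 and 13.1 ± 0.10 (SD, n = 3 each), and apart by 0.28 at the nearest arrays. The difference of -0.42 ± 0.16 (SE), or 1.33-fold, had an unadjusted limma p of 0.040 and stayed between -0.46 and -0.36 with any array left out.

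Ssr1 and Ssr3 encode subunits of the translocon-associated protein complex. Ssr1 read 11.37, 11.64 and 11.60 in KO and 11.85, 11.97 and 11.71 in WT (-0.30 ± 0.18, SE). Ssr3 read 11.60, 12.20 and 12.18 in KO and 12.35, 12.62 and 12.30 in WT (-0.43 ± 0.23, SE; -0.23 without KO 1). In both, every mutant was below every control, with the nearest arrays 0.062 (Ssr1) and 0.10 (Ssr3) apart. Sec61b, the small subunit of the channel, differed by -0.12 and overlapped, with WT 3 lowest at 13.09.

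The translocon difference was not seen on all probe sets of these genes. Of 6 tested Sec61a1 probe sets 3 were lower and 3 higher in KO, from -0.82 to 0.34. On 2 of the dimmer ones KO 1 and WT 3 were low together, at 6.02 and 5.70 on one, where the other arrays read 7.65 to 7.97, and at 5.18 and 4.995 on the other, where they read 6.75 to 7.23. The dimmer Hsp90b1 probe set behaved alike, with 7.60 on KO 1, 6.86 on WT 3 and 9.81 to 10.92 elsewhere, as did one of Ssr1 (8.32 and 8.71 against 9.64 to 10.50). KO 1 and WT 3 are the arrays with the largest Gapdh 3' minus 5' difference, and its part in these values was not tested. Over the 20 genes with more than 1 tested probe set, 9 were lower in KO on all of them, 3 higher on all (Herpud1, Syvn1 and Xbp1) and 8 mixed. Among all 75 tested probe sets of the list 11 had the mutants wholly below the controls and 0 the reverse, where 4.03% of all probe sets were wholly lower; probe sets of 1 gene are not independent.

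**Figure D4:**
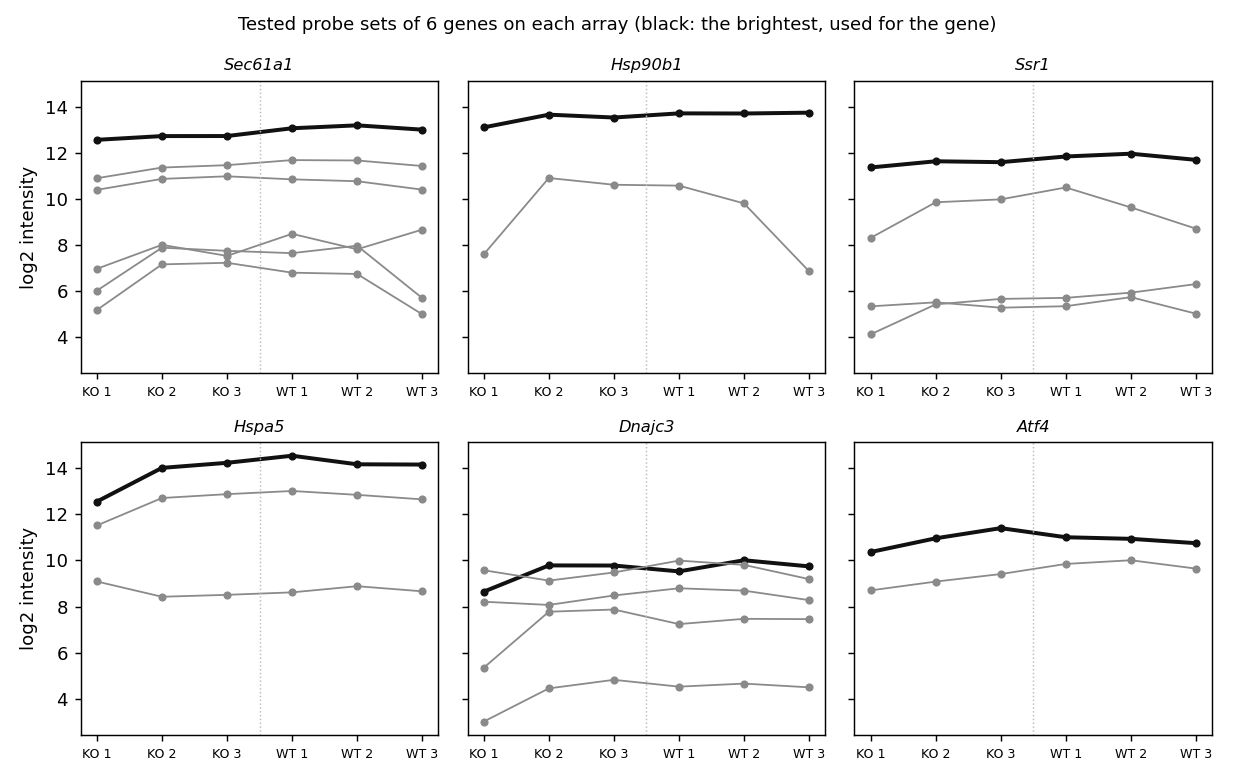
Log2 intensity (vertical axis) of every tested probe set of 6 genes on the 6 arrays, with the brightest probe set, which stands for the gene, in black and the others in grey. The drop on KO 1 and WT 3 together is seen on dimmer probe sets of Sec61a1, Hsp90b1 and Ssr1. The drop on KO 1 alone is seen on the brightest probe set of Hspa5 and of Dnajc3, but not on all of their probe sets.

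A further 97 tested genes in 7 lists likewise had 0 calls after adjustment (limma adjusted p of at least 0.91). At an unadjusted limma p under 0.05 there were 5, all lower in KO. Of all probe sets 3.62% had such a p in both directions and 1.81% in the lower direction. In 5 of the lists, with 70 tested genes of the ER and the secretory pathway, 49 were below 0 and the median was -0.08. The other lists hold ATF4 and eIF2α genes and cytosolic chaperones. Among 17 genes of translocation and signal peptide removal 12 were lower and 5 higher. Sec11c, a catalytic subunit of the signal peptidase, read 10.56, 10.31 and 10.22 in KO and 11.86, 12.09 and 11.005 in WT. Every mutant was below every control, and the difference of -1.28 had an unadjusted limma p of 0.005 (adjusted p = 0.914). Its alternative subunit Sec11a was 0.23 higher, also without overlap. Spcs3 (-0.66), a noncatalytic signal peptidase subunit, and Tram1 (-0.46), which helps chains into the channel, lay apart with KO lower. With Sec11c that made 3 of the 17, where 4.03% of all probe sets lay apart with KO lower.

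The remaining branches were near 0 or mixed. The medians were -0.08 for 12 genes of N-glycosylation, -0.10 for 12 of oxidative folding, -0.03 for 13 further degradation genes and -0.19 for 16 of ER-to-Golgi transport, where 13 were lower. In the ATF4 and eIF2α list 10 of 19 were lower (median -0.01). The lipoprotein receptor gene Vldlr (-1.15), the serine synthesis gene Psat1 (-0.88), the stress gene Nupr1 (-1.17) and the transcription factor gene Cebpb (-0.80) were its 4 genes at an unadjusted limma p under 0.05, each at an adjusted p of 0.999, and Nupr1 also belongs to the Paneth list used here. At that threshold 1.81% of all probe sets were lower in KO. Cytosolic chaperones went the other way by their median (0.21, with 6 of 8 higher), with 0 at an unadjusted p under 0.05.

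**Figure D5:**
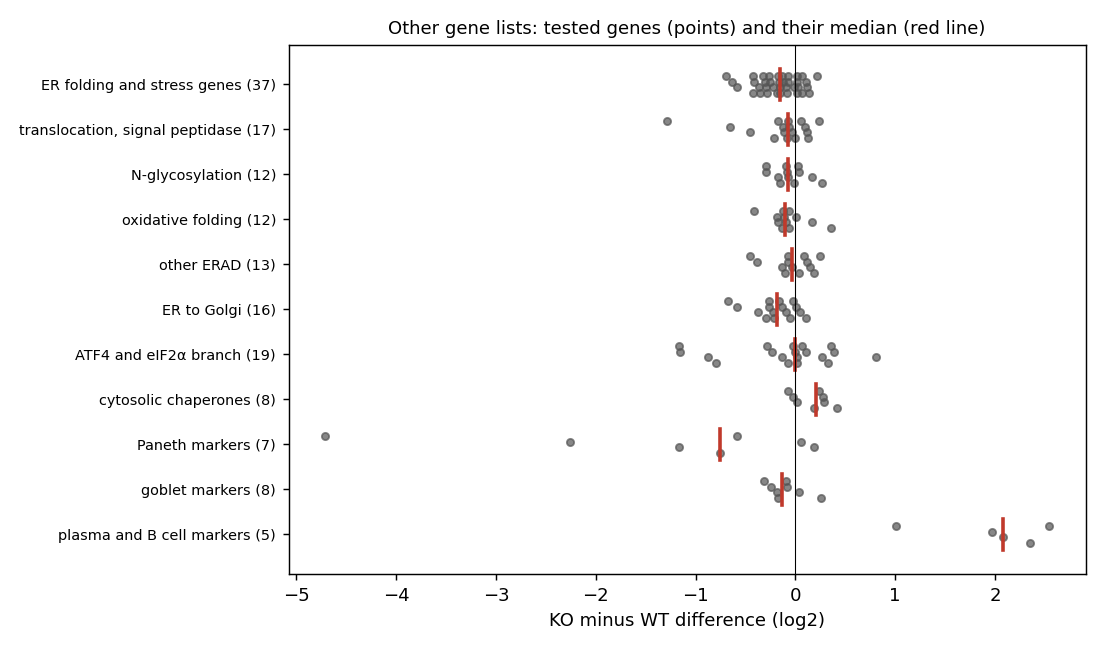
KO minus WT difference in log2 intensity (horizontal axis) of tested genes in each list (points) with the median of the list (red line) and the number of genes in brackets. The ER and ATF4 lists have medians from -0.19 to -0.01 and cytosolic chaperones 0.21, while Paneth markers have -0.75 and plasma and B cell markers 2.08. Of 7 plasma and B cell markers on the array, 1 read at least 4 on every array.

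Markers of secretory and blood cells were read beside these values. Of 7 Paneth markers 5 were lower in KO and 2 higher, with a median of -0.75 and a lowest difference of -4.71. All 5 lower ones had an unadjusted limma p under 0.05, as 1.81% of all probe sets did in that direction. In 4 the mutants lay wholly below the controls (4.03% of all probe sets). After adjustment 0 passed (smallest limma adjusted p = 0.156). The Paneth list was chosen with earlier results of these data known, so the values of these markers are no independent result. Their summed level, as log2 of summed intensities, was 17.1 to 17.4 in KO and 17.8 to 18.2 in WT, with no overlap. For 8 goblet markers it was 17.7 to 17.9 in both groups (median difference -0.13). Of 7 plasma and B cell markers 5 passed the filter, all with differences above 0. Only 1 of the 7 read at least 4 on every array. The rest that passed did so through their high arrays, so the shared direction is no independent result. From the mean of each marker, the median over the 5 was 2.19 on KO 1, 1.98 on KO 2 and -1.07 on KO 3. For the controls it was -1.52 (WT 1), -0.99 (WT 2) and -0.38 (WT 3). Plasma cells are rich in ER. The summed level of the 7 was 10.3 to 14.04 in KO and 7.05 to 11.1 in WT. KO 1 was highest, with Jchain at 13.998 and Mzb1, which encodes an ER protein of plasma cells, at 7.98 (at most 4.69 on the other arrays). Tnfrsf17 was at the floor on all arrays (2.09 to 2.28). The 6 tested T and NK cell markers were all above 0 (median 0.74), with summed levels of 11.3 to 11.8 in KO and 9.75 to 12.5 in WT. Of 7 on the array, 5 read at least 4 on every array. From the mean of each marker, their median was -1.61 on WT 1, 0.76 on WT 2 and -0.30 on WT 3. On the KO arrays it was 0.26 to 0.52, so WT 2 lay above every mutant. The 7 enterocyte markers had a median difference of 0.12, with 5 higher and 2 lower in KO and a highest difference of 0.95. At an unadjusted limma p under 0.05 there were 2, both higher (3.62% of all probe sets in both directions). In 1 the mutants lay wholly above the controls (9.12% of all probe sets lay apart in both directions). After adjustment 0 of these passed. The part of these cell types in the ER gene values was not tested.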

How the data were processed

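Total RNA of jejunal crypts was hybridised to single-colour Affymetrix arrays, 1 for each of 6 mice. The deposited log2 intensities were made by the authors with GCRMA, and limma is also named, per the submitters' processing notes; the sources used here give no versions, settings or genome build. GCRMA compresses differences of dim probe sets. Arrays have no read depth, and their number limits the precision.

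After removal of 64 controls, 18108 of 45037 probe sets reached a mean of 4 and were fitted with limma 3.58.1 in R 4.3.3 (KO minus WT, two-sided, Benjamini-Hochberg over all probe sets tested; 4 residual and 2.59 prior degrees of freedom). The labels name separate mice, so p-values describe the spread between these mice. Gene names come from the platform annotation, and all 38 listed symbols matched RefSeq (GRCm38.p6). Values on every array are given for Hspa5, Xbp1, Ern1, Ern2, Atf4 and Ddit3 and for listed genes with an unadjusted p under 0.05, a difference of at least 1 or groups that do not overlap. From each other list up to 3 genes of smallest p may be named; Cebpb, Sec11a, Jchain, Mzb1 and Tnfrsf17, and array values of further listed genes, were chosen after their values were seen. The listed genes, gene lists and tests were chosen with earlier results of these data known. The fit was tested on simulated data with independent noise and added differences of at least 1 log2 unit in size. No listed gene differed that much, so the simulation does not show whether such small differences can be found. Columns of other samples numbered 0. The Y-linked mean used Eif2s3y, Kdm5d and Uty.

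The labels do not say whether KO and WT mice of equal number share a litter, and the main fit did not pair them. Deviations of same-numbered mice correlated at -0.05, -0.29 and 0.03. So few values cannot decide whether the mice are paired. Alternatives were a replicate block, other filters, quantile normalization, centring on the median, weights for arrays, a trended and robust prior, averaging over each gene's probe sets, terms for Gapdh and Y-linked signal, and each array left out.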

Additional observations from a re-analysis of the deposited data

How the results depend on the processing

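Under all 17 alternatives 0 listed genes passed an adjusted p of 0.05, and the median difference of the list stayed below 0, between -0.25 and -0.05. With the replicate block, which leaves the differences as they were, the median was -0.16 and 0 probe sets of the whole array were called. That overall count, 2 as reported, was also 0 with no filter, with the Gapdh term and with the Y-linked term, 1 with a filter at 6, 4 with quantile normalization, 11 with array weights, 7 with probe sets averaged per gene, 11 without both KO 1 and WT 3, and 0 to 16 with single arrays left out. The number of listed genes with groups that do not overlap was 1 with probe sets averaged per gene, 18 without both KO 1 and WT 3 (43.7% of all probe sets), and 6 to 14 with single arrays left out (15.8% to 24.1% of all probe sets); without KO 1 (7) and without WT 1 (6) it was below that share. Signs turned only for Xbp1, Atf4 and Hsp90b1 among the 11 genes followed through the alternatives. Xbp1 was -0.015 with quantile normalization, -0.042 with array weights, -0.027 with the Gapdh term, -0.10 without KO 1 and WT 3, and -0.046 to 0.099 with single arrays left out. Atf4 was -0.019 with quantile normalization, -0.38 with the mean of its probe sets, -0.16 with the Gapdh term, and -0.23 to 0.28 with single arrays left out. Hsp90b1 was 0.17 with the mean of its probe sets. The cause was not tested, except that means of probe sets bring in the dimmer ones described above. Of the motif counts, ERSE went from 9 genes to 6 and TGATGNAA from 1 to 0 when the strand opposite to the gene was not searched. The overlap count does not depend on the model, so it has no value for the replicate block, the prior, the weights or the added terms.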
